A study of Arabidopsis thaliana with 30 samples.

Results

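The response of wild-type Arabidopsis thaliana seedlings (Col-0) to antimycin A was described across all 3481 genes that the authors' deposited comparison of antimycin A against mock lists for wild type, out of 6297 genes listed for at least 1 of the 5 lines of the series. The members were therefore chosen by the authors' own test on these 6 libraries, and every listed gene has a q-value below 0.05 and changed by more than 1 on the log2 scale in either direction. The antimycin A group was wild-type whole seedlings, 10 days old, given 50 µM antimycin A for 5 h (3 libraries). The mock group was the same genotype and age without the inhibitor (3 libraries). All seedlings had grown vertically on agar plates of half-strength MS medium with sucrose and were then moved to liquid half-strength MS in wells, so RNA of all organs was mixed in every library.

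Antimycin A blocks electron transfer through the cytochrome bc1 complex (complex III) of the mitochondrial respiratory chain. Electrons that cannot pass this complex can reach oxygen through the alternative oxidase, and plants relay the state of the organelle to the nucleus through membrane-bound NAC transcription factors, a process called retrograde signalling. The kinase SnRK1, whose mutant and overexpressor are among the other lines, is an energy sensor that is activated when sugar or respiration runs short. The series gave the same treatments, at the same age, to the mutants snrk1a-2, jmj15-2 and crf6-2 (here snrk1a, jmj15 and crf6) and to an overexpression line of SnRK1a (SnRK1aOX), 1 line each, with 3 libraries for each of the 10 groups. The promoter of the overexpression line is not given in the sources used here.

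Values below are normalised counts, that is, read counts per gene that the authors had adjusted within the wild-type table, and the adjustment method is not given in the sources used here. The total depth of each library is unknown, because the table holds listed genes only. A change is the antimycin A minus mock difference of mean log2(normalised count + 1), given with its standard error from a limma fit to the 3 and 3 libraries, and p-values were adjusted with the Benjamini-Hochberg method over the 23742 genes that the authors' q-values imply were tested. Rose and fell are used for genes that passed both the authors' call and adjusted p under 0.05 in this fit, while "listed as higher" or "listed as lower" rests on the authors' call alone. Whether the 3 libraries per group are separate cultures is not stated by the labels, and the p-values measure the spread between these libraries, which may be technical. Libraries of the same group correlated at 0.961 to 0.980 over the listed genes on the log scale, and libraries of different groups at no more than 0.856.

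More genes were listed as lower than as higher in wild type, but the higher ones had the higher median level over the 6 libraries. Of the genes tested, 14.7% were listed, with 1383 (5.83%) higher and 2098 (8.84%) lower in antimycin A seedlings. These shares are the background for every count of listed members of a gene list or family. The limma fit called 1112 higher (4.68%) and 1541 lower (6.49%) of them. After median centring, in which each library was set to the same median over the listed genes, it called 1343 higher and 587 lower. The median of the listed genes was lower by 0.70 (log2) in antimycin A libraries than in mock libraries before centring, as most listed genes were lower. The median log2 ratio of group means, log2((mean antimycin A + 1)/(mean mock + 1)), was 1.48 among the higher genes and -1.66 among the lower genes. Past a ratio of 2 on this log2 scale stood 356 higher and 691 lower genes, and past 4 stood 25 and 36. The antimycin A and mock values did not overlap for 3308 of the 3481 genes (95%), which follows in part from how the genes were chosen.

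The direction of listing varied with the mean level over the 6 libraries, a measure that includes the response itself. The median higher gene had a mean of 523 normalised counts over the 6 libraries, against 122 for the median lower gene. In mock libraries alone the medians were closer, at 256 for higher genes and 187 for lower genes. In antimycin A libraries they were 766 and 53.7, so part of the trend with level is built in. With the listed genes cut into 5 classes of equal size by level, 33.7% of the lowest class were higher, and 70.8% of the highest class. Summed over the listed genes, the antimycin A mean exceeded the mock mean by 3707945 normalised counts for the genes listed as higher, while for the genes listed as lower the same difference was -1333617. The share of listed genes that the limma fit also called was 42.3% in the lowest class and 98.6% in the highest, so the calls on rare transcripts rest mainly on the authors' test.

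**Figure D1:**
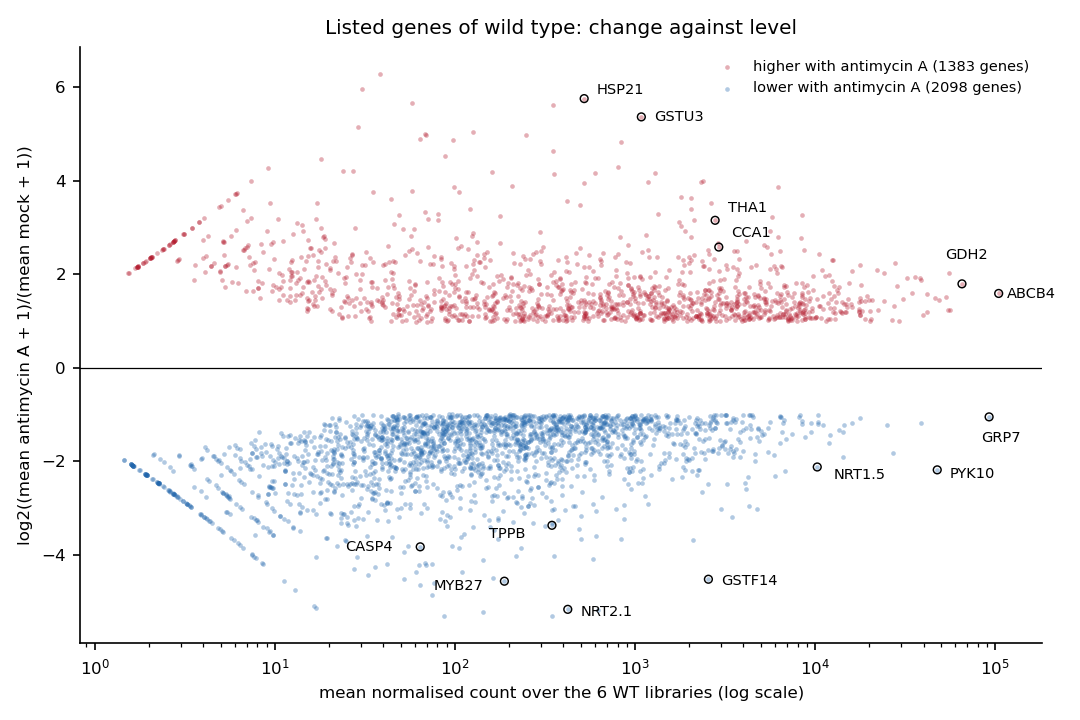
Each point is 1 of the 3481 listed genes; the horizontal axis is its mean normalised count over the 6 wild-type libraries (log scale) and the vertical axis the log2 ratio of the antimycin A mean over the mock mean, each plus 1. Red points are the 1383 genes listed as higher and blue points the 2098 listed as lower; higher genes dominate at the right, and the empty band around 0 is the authors' fold threshold.

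The 10 largest increases were taken among genes at or above the median level whose antimycin A and mock values did not overlap. They included 6 small heat shock or HSP20-like chaperone genes, a glutaredoxin and a glutathione transferase. HSP21, a plastid-localised small heat shock protein, had 964, 731 and 1381 in antimycin A seedlings and 38.4, 13.2 and 2.59 in mock seedlings (change 6.3 ± 0.73, adjusted p = 0.000611). GSTU3, a glutathione transferase of the tau class, had 2308, 2317 and 1726 in antimycin A seedlings and 101, 6.19 and 44.2 in mock seedlings (change 6.03 ± 0.79, adjusted p = 0.000969). HSP22, a small heat shock protein of the endomembrane system, had 591, 439.5 and 1032 in antimycin A seedlings and 17.2, 16.2 and 5.50 in mock seedlings (change 5.67 ± 0.48, adjusted p = 0.000197). All antimycin A values lay above all mock values, which was a condition of the choice. The size of the change moved with single mock libraries. That of HSP21 lay between 5.39 and 7.12 when 1 library was left out, with the widest moves without mock library 1 or 3. That of GSTU3 lay between 4.95 and 6.86, where mock libraries 1 and 2 moved it most.

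The other increases of this group were GRX480, a CC-type glutaredoxin (5.28 ± 0.56), the cytosolic small heat shock protein HSP17.6II (5.01 ± 0.50), the heat shock factor HSFA2 (4.28 ± 0.36), 3 genes annotated as HSP20-like chaperones or small heat shock proteins (AT1G52560, 4.77 ± 0.46, AT1G53540, 4.4 ± 0.39, and AT1G07400, 4.27 ± 0.31), and AT4G37220, annotated as a cold acclimation protein of the WCOR413 family (4.31 ± 0.41). All 7 had adjusted p under 0.05. GRX480 lay between 4.56 and 5.76 when 1 library was left out, mock library 3 moving it most, and HSP17.6II between 4.39 and 5.47, mock library 2 moving it most.

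The 10 largest decreases at such levels, again taken only among genes without overlap, included 2 root transporters and 2 genes of xyloglucan modification. A cytochrome P450 and a glutathione transferase were also among them. NRT2.1, a high-affinity nitrate transporter, had 18.3, 26.03 and 21.9 in antimycin A seedlings and 1343, 522 and 607 in mock seedlings (change -5.04 ± 0.38, adjusted p = 0.000137), and the groups lay far apart. GSTF14, a glutathione transferase of the phi class, had 208, 199 and 231 in antimycin A seedlings and 6924, 4674 and 3093 in mock seedlings (change -4.44 ± 0.26, adjusted p = 7.59e-05). CYP735A2, a cytochrome P450 that makes trans-zeatin cytokinins, had 71.97, 34.2 and 83.7 in antimycin A seedlings and 1523, 1201 and 571 in mock seedlings (change -4.08 ± 0.43, adjusted p = 0.000408). These 3 genes fell, and the separation of their groups was a condition of the choice. IRT1, the main iron importer of the root epidermis, had 2.08, 19.5 and 26.9 in antimycin A seedlings and 699, 61.04 and 1279 in mock seedlings, with a change of -4.98 ± 1.15, adjusted p = 0.0205. The IRT1 call ended without antimycin A library 1 (adjusted p = 0.0986), without antimycin A library 2 (0.0685), without mock library 1 (0.1202) or without mock library 3 (0.0962), and its change lay between -6.29 and -3.995 over these and the other single omissions.

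The xyloglucan endotransglucosylases XTH31 (-3.67 ± 0.23) and XTH12 (-3.61 ± 0.54), which cut and rejoin wall polymers, also fell, and XTH12 lay between -4.25 and -3.12 when 1 library was left out, mock library 2 moving it most. AT3G01260, annotated as a galactose mutarotase-like protein, fell by 5.25 on the log2 scale, and AT1G34040, annotated as a pyridoxal phosphate-dependent transferase, by 4.01. AT3G19430, annotated as a late embryogenesis abundant-related protein, fell by 3.99 and AT3G20380, annotated as a TRAF-like protein, by 3.73.

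By normalised count gained, a measure that grows with transcript length, the leading gene was ABCB4, a plasma membrane auxin transporter of roots. ABCB4 had 150420, 146199 and 173799 in antimycin A seedlings and 59827, 55804 and 40901 in mock seedlings (change 1.6 ± 0.20, adjusted p = 0.000788), and the 2 groups did not overlap. GDH2, a subunit of mitochondrial glutamate dehydrogenase, followed with 109307, 104812 and 90174 in antimycin A seedlings and 33349.8, 29597 and 24891 in mock seedlings (change 1.8 ± 0.18, adjusted p = 0.000309). DJ1A, annotated as a class I glutamine amidotransferase-like protein of the DJ-1 family, had 92359, 91810.5 and 83724 in antimycin A seedlings and 25019, 22422 and 18870.5 in mock seedlings (change 2.02 ± 0.17, adjusted p = 0.000179). The other 7 were GSTU19 (1.51 ± 0.15), XTH24 (1.25 ± 0.19), the raffinose synthase family gene DIN10 (1.46 ± 0.17), the sulfotransferase SOT12 (1.95 ± 0.19), the zinc finger gene NFXL1 (1.26 ± 0.20), GH3.3, an enzyme that conjugates auxin to amino acids (1.87 ± 0.17), and AT4G01870, annotated as tolB protein-like (1.5 ± 0.21). All 10 rose.

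The largest loss in normalised count was that of GRP7, a glycine-rich RNA-binding protein under clock control, with 54931, 60188 and 65599.8 in antimycin A seedlings and 117081, 127172 and 129762 in mock seedlings (change -1.05 ± 0.17, adjusted p = 0.00248). PYK10, the beta-glucosidase that fills the endoplasmic reticulum bodies of roots, had 19237, 14085 and 18314 in antimycin A seedlings and 100749, 87861 and 45572 in mock seedlings (change -2.11 ± 0.29, adjusted p = 0.00121). NRT1.5, which loads nitrate into the root xylem, had 3631, 3513 and 4385 in antimycin A seedlings and 21474, 14238 and 14401 in mock seedlings (change -2.1 ± 0.19, adjusted p = 0.000252). The peroxidase PRXR1 (-1.19 ± 0.14), the cytosolic glutamine synthetase GLN1;2 (-1.77 ± 0.22), the extensin-like gene ELP (-1.21 ± 0.16), the GDSL lipase gene AT3G16370 (-1.36 ± 0.15), the arabinogalactan gene FLA9 (-1.17 ± 0.16), the tubulin TUA2 (-1.07 ± 0.14) and the papain-type protease gene AT4G11320 (-1.82 ± 0.34) made up the 10, and all fell. AT4G11320 lost its call without antimycin A library 2 (adjusted p = 0.0525) or mock library 2 (0.0519). GRP7, PRXR1, ELP, AT3G16370, FLA9 and TUA2 lost theirs after median centring.

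At the edge of the list, with no test, the smallest fold changes were those of AT4G16260, whose means were 2979 normalised counts in antimycin A seedlings and 5959 in mock seedlings, and GSTU9, with means of 15376 in antimycin A seedlings and 7686 in mock seedlings. The largest q-values belonged to AT3G44450, with 10.1, 0.0793 and 1.99 in antimycin A seedlings and 30.7, 8.16 and 15.01 in mock seedlings, and to AT5G46115, with 0.00684, 0.0413 and 5.99 in antimycin A seedlings and 19.2, 6.11 and 7.45 in mock seedlings. Genes just outside the thresholds are not in the table.

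Transcripts of the mitochondrial genome were listed in 37 cases, and 36 of them were higher in antimycin A seedlings. The limma fit called 23 of the 36, beside 1112 of all 1383 genes listed as higher (80.4%). How many mitochondrial loci the authors tested is not given in the sources used here. The median log2 ratio of the 36 was 1.54, with a range of 1.02 to 3.58. The antimycin A and mock values of all 36 did not overlap, beside 96.7% of all genes listed as higher. Summed over the 36 loci listed as higher, without the lower one, the antimycin A libraries had 4800, 4628 and 4401 normalised counts. The mock libraries had 1593, 1652 and 1621. These loci carry no gene name in the annotation used here. How much of this RNA carries a poly(A) tail, and whether library preparation selected for it, was not tested. A block of mitochondrial DNA is also copied into chromosome 2, and 28 nuclear loci with identifiers beginning AT2G07, a range that holds the copy, were listed, all 28 as higher, 14 of them called by the limma fit. Reads of the copy and of the mitochondrial genome can be nearly identical, so the counts of both sets are uncertain.

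Nuclear genes for the respiratory chain were listed as higher at a share near the background and as lower at a share below it, 5.56% against 5.83% and 1.11% against 8.84%. The limma fit called 1 of the 5 higher members and the lower one. By annotated product, the counts were 5 higher and 1 lower of 90 respiratory chain genes, 4 higher and 2 lower of 313 pentatricopeptide repeat genes, whose products process organelle RNA, 2 higher and 1 lower of 344 ribosomal protein genes and 0 higher and 0 lower of 45 proteasome subunit genes. Of the 5 higher respiratory chain genes, AT2G07633 and AT2G07687 have identifiers of that chromosome 2 range. Among 21 mitochondrial carriers of the inner membrane, 2 were higher (9.52%) and 1 lower (4.76%), beside the same background. MPT2, a phosphate carrier, had 791, 1079 and 979 in antimycin A seedlings and 422, 374 and 204 in mock seedlings (change 1.56 ± 0.28, adjusted p = 0.00498). AAC3, an ADP/ATP carrier, rose by 1.2 ± 0.16. APC1, an ATP-Mg/phosphate carrier, had 369, 268 and 306 in antimycin A seedlings and 816, 979 and 959.98 in mock seedlings and fell (change -1.55 ± 0.18, adjusted p = 0.000624).

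Genes for the breakdown of amino acids had the highest share of members listed as higher, apart from 2 lists picked earlier for their response in these libraries. The other lists, this one among them, were also chosen with earlier results of these data known. Its rank and share are therefore descriptions only. Of 28 enzymes, 17 rose and none was lower, beside a background of 5.83% of all genes tested listed as higher. The 17 span the routes for branched-chain amino acids, lysine, threonine, methionine, proline, tyrosine and glutamate. The median log2 ratio of the 17 was 1.62. Leaving out any single library left 16 or 17 members called.

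THA1, threonine aldolase, had 6767, 4861 and 3386 in antimycin A seedlings and 709.6, 590.3 and 389 in mock seedlings (change 3.14 ± 0.29, adjusted p = 0.000252). BCAT2, a branched-chain aminotransferase of the chloroplast, had 13053, 8960.3 and 5759 in antimycin A seedlings and 1749.7, 1478 and 1387 in mock seedlings (change 2.52 ± 0.27, adjusted p = 0.000414). MCCA, the biotin-carrying subunit of methylcrotonyl-CoA carboxylase in leucine breakdown, had 26415, 20562 and 15565 in antimycin A seedlings and 4731, 3793 and 4171 in mock seedlings (change 2.27 ± 0.20, adjusted p = 0.000241). In all 3 genes the antimycin A libraries lay well above every mock library. DIN4, a subunit of the branched-chain keto acid dehydrogenase, had 10230.3, 7416 and 5583 in antimycin A seedlings and 1722, 1669.6 and 1689.99 in mock seedlings (change 2.15 ± 0.21, adjusted p = 0.000297). Members outside the 4 largest, named here after their values were seen, were the tyrosine pathway enzymes HPD (2.13 ± 0.19) and HGO (1.59 ± 0.18), isovaleryl-CoA dehydrogenase IVD (1.83 ± 0.19), the lysine enzyme LKR (1.62 ± 0.16), methionine gamma-lyase MGL (1.6 ± 0.16), proline dehydrogenase ERD5 (1.28 ± 0.19) and the electron-transfer flavoprotein oxidoreductase ETFQO (1.09 ± 0.18). The third antimycin A library was the lowest of its group in 17 of 17 members, and the summed level of the 17 was 332700, 290508 and 239685 normalised counts in antimycin A libraries against 89561, 81348 and 73898 in mock libraries. Without that library 16 of the 17 were still called.

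Sugar and starvation genes were listed in both directions. Of 26 sugar transporters and invertases 7 were higher and 2 lower (the limma fit called both lower ones, but 1 of them without any single library other than mock library 2), and of 19 trehalose phosphate enzymes 3 were higher and 2 lower. SWEET2, a vacuolar glucose carrier of roots, had 3311, 3780.1 and 3003 in antimycin A seedlings and 515, 316 and 503 in mock seedlings (change 2.95 ± 0.21, adjusted p = 0.000112). SWEET17, a vacuolar fructose carrier, fell (change -1.67 ± 0.26), and VI2, a vacuolar invertase, rose by 1.35 ± 0.22. TPPB, a trehalose 6-phosphate phosphatase, had 56.8, 67.4 and 56.8 in antimycin A seedlings and 728, 518 and 646 in mock seedlings (change -3.36 ± 0.23, adjusted p = 8.87e-05), and every antimycin A value was far below every mock value. Among trehalose phosphate synthase-like genes TPS11 (1.39 ± 0.18) and TPS8 (1.18 ± 0.16) rose while TPS5 (-1.31 ± 0.16) fell. Of 22 autophagy genes 1 was listed, ATG8E, which rose (1.48 ± 0.15).

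Of 18 clock genes 7 rose, none was lower and 11 were not listed, beside a background of 4.68% of all genes tested that the limma fit called higher. The 7 calls were made with all libraries and when any 1 library was left out. The proteins CCA1 and LHY are MYB-related repressors that peak at dawn, RVE8 activates evening genes with its partner LNK2, RVE1 links the clock to auxin, and PRR9 is a morning-phased repressor. CCA1 (AT2G46830) had 5407, 5126 and 4465 in antimycin A seedlings and 822, 699.9 and 986 in mock seedlings (change 2.59 ± 0.17, adjusted p = 8.16e-05). LHY (AT1G01060) had 3904, 3493 and 3347 in antimycin A seedlings and 601, 709 and 705 in mock seedlings (change 2.41 ± 0.14, adjusted p = 7.59e-05). These core repressors were several times higher in every antimycin A library. RVE1 (AT5G17300) had 1941, 1899 and 1752 in antimycin A seedlings and 329, 308 and 366 in mock seedlings (change 2.48 ± 0.15, adjusted p = 7.59e-05). RVE8 had 2249, 1915 and 1823 in antimycin A seedlings and 388, 419.9 and 346 in mock seedlings (change 2.37 ± 0.16, adjusted p = 8.58e-05). In all 4 genes the lowest antimycin A library was above the highest mock library by a wide margin. LNK2 (2.27 ± 0.19), RVE2 (2.24 ± 0.15) and PRR9 (1.34 ± 0.18), named after their values were seen, also rose. The hour of harvest of the 2 groups is not given in the sources used here, and its part in the result was not tested.

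**Figure D2:**
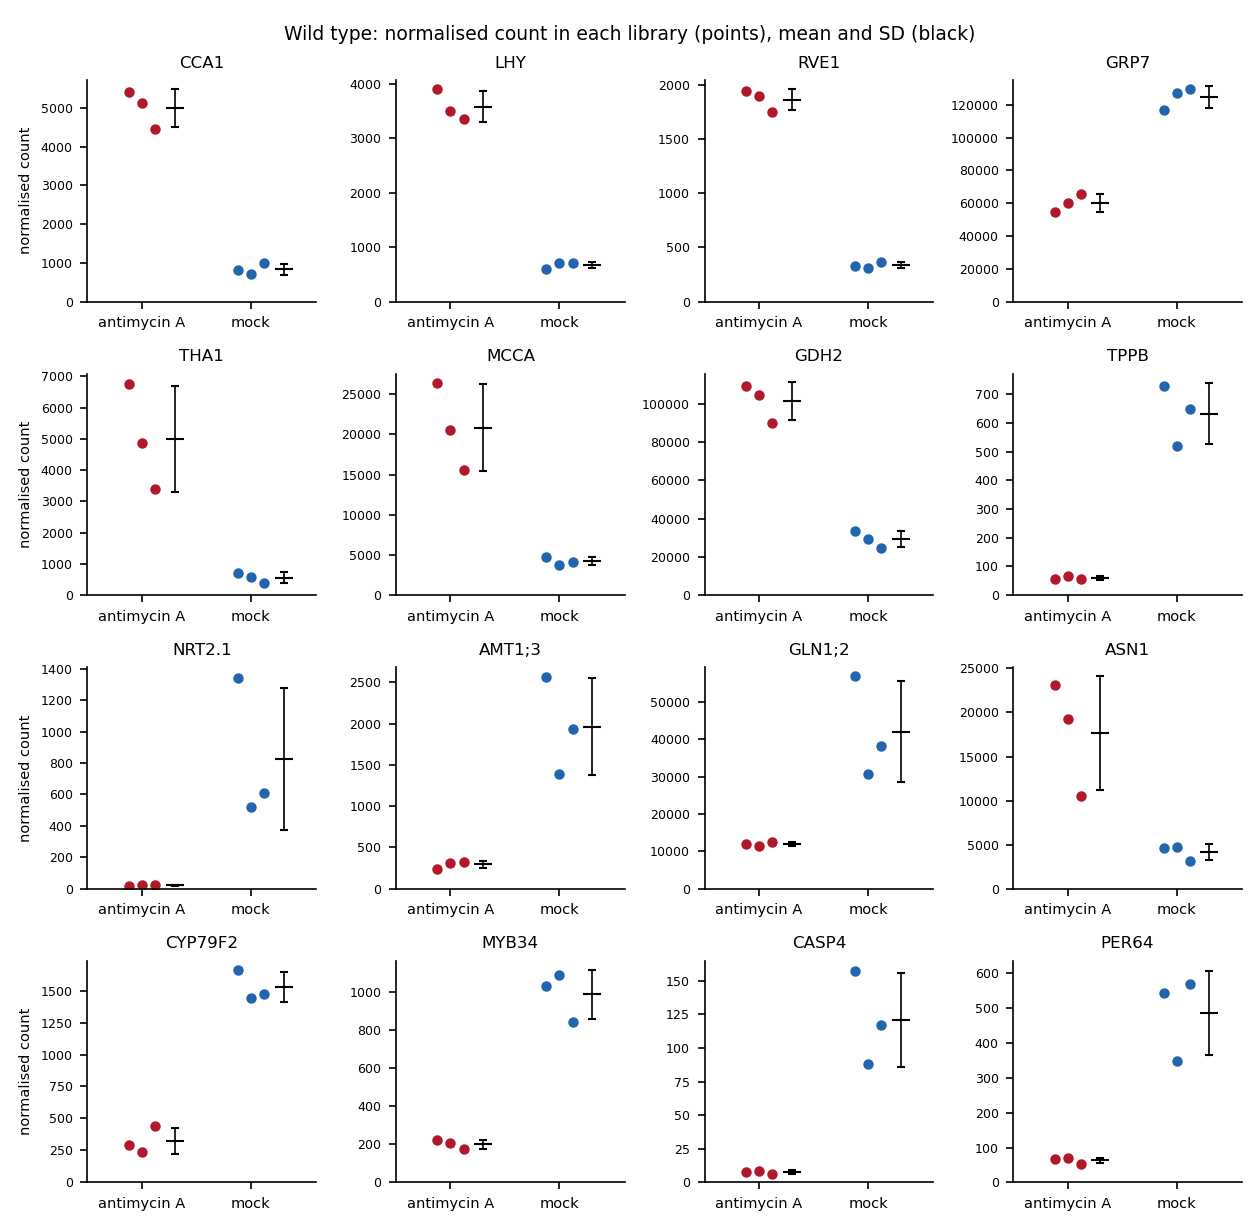
Normalised counts of 16 named genes in each wild-type library, with the 3 antimycin A libraries in red at the left of each panel, the 3 mock libraries in blue at the right, and black bars for the group mean and SD (n = 3). CCA1, LHY, RVE1, THA1, MCCA, GDH2 and ASN1 are higher with antimycin A, the other 9 are lower, and the 2 groups do not overlap in any panel. The same lack of overlap holds for 95% of all listed genes.

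Promoter sequence of these genes is shown because 5 of the 7 listed clock genes held a G-box (CACGTG), the hexamer read by bZIP and bHLH factors, in the 300 bases before the annotated gene start, as did 8 of all 18 clock genes. The share over all nuclear protein-coding genes was 7.09%. GRP7, which fell, is shown for contrast with its 3 evening elements (AAAATATCT), the nonamer bound by CCA1 and LHY. That element was held by 4 of all 18 clock genes and 0 of the 7 listed ones. GRP7 is a single picked example: the element was in 2.96% of windows of lower genes, 3.56% of higher genes and 2.79% of all genes. Sequences are from the RefSeq TAIR10.1 assembly, read 5′ to 3′ on the strand of the gene, and capitals mark the G-box in the first 3 and the evening element, on either strand, in the last. The windows lie at chr2:19245291-19245590, plus strand for CCA1, chr1:37872-38171, minus strand for LHY, chr5:5692993-5693292, minus strand for RVE1 and chr2:9266558-9266857, minus strand for GRP7.
CCA1: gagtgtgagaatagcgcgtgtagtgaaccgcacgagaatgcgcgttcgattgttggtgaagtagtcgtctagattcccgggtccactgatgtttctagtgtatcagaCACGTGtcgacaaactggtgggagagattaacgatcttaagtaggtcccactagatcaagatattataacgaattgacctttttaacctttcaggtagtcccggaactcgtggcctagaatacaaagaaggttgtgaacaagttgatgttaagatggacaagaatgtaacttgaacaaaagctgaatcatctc
LHY: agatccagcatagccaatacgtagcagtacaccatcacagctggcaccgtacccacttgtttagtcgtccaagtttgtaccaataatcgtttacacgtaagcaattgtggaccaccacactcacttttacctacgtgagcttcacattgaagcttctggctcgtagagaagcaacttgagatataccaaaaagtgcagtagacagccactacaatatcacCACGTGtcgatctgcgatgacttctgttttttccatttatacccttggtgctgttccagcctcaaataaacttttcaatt
RVE1: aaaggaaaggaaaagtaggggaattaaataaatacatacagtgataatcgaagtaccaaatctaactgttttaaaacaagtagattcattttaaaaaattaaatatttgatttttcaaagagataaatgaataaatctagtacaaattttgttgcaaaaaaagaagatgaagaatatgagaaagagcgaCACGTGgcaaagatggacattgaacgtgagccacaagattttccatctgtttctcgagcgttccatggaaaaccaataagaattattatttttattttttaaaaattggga
GRP7: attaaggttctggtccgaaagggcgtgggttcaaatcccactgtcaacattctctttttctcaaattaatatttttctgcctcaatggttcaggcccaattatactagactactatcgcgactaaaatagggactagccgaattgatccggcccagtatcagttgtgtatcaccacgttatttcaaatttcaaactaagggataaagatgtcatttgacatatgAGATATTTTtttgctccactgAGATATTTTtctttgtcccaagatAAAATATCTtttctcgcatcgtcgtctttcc

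Promoters of heat-response genes are shown for HSFA2 and AT1G53540, the 2 of 11 heat shock genes examined in an earlier description of these data that held a strict heat shock element. That list had been picked for its response in these libraries, so its 11 higher members give no support of their own. The element was searched as GAANNTTCNNGAA and its reverse complement TTCNNGAANNTTC, 3 alternating repeats of the unit bound by heat shock factors, and capitals mark it. The windows are chr2:11135324-11135623, plus strand, for HSFA2 and chr1:19979999-19980298, plus strand, for AT1G53540 (RefSeq TAIR10.1).
HSFA2: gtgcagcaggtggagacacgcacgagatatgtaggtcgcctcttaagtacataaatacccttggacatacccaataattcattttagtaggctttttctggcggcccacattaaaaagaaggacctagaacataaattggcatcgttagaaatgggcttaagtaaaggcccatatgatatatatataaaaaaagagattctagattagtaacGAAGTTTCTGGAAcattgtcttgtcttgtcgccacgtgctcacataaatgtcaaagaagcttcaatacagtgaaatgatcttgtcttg
AT1G53540: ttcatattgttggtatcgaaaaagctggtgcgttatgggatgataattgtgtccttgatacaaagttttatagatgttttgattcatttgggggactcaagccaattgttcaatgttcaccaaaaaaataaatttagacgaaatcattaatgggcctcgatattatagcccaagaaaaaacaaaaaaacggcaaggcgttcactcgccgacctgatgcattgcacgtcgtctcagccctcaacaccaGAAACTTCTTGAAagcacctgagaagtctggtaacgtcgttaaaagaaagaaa
HSFA2 had 1005, 959 and 1445 in antimycin A seedlings and 103, 43.7 and 40.3 in mock seedlings (change 4.28 ± 0.36, adjusted p = 0.0002). AT1G53540 had 1236, 1317 and 2070.01 in antimycin A seedlings and 123, 39.6 and 69.6 in mock seedlings (change 4.4 ± 0.39, adjusted p = 0.000241).

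Over all listed genes, 7 motifs were counted on both strands of the same 300-base windows, for 1347 higher and 2097 lower nuclear genes and for all 27443 nuclear protein-coding genes. The G-box was in 12.2% of windows of higher genes, 5.58% of lower genes and 7.09% of all genes. The W-box (TTGACC or TTGACT), the core read by WRKY factors, was in 43.1%, 32.8% and 32.3% in the same order. The mitochondrial dysfunction motif (CTTGNNNNNCAAG or CTTGNNNNNCACG), read by retrograde NAC factors, was in 2.82%, 0.858% and 1.37%, and the strict heat shock element in 1.11%, 0.381% and 0.485%. The GCC-box (GCCGCC) was in 2.82%, 0.906% and 2.26%, the evening element in 3.56%, 2.96% and 2.79%, and a TATA box (TATAAATA) in 11.7%, 12.5% and 11.2%. These shares are descriptions without a test, a match is not a bound site, and motifs can overlap one another in a window.

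Nutrient genes were listed in both directions. Of 31 nitrogen genes 3 were higher and 5 lower, of 16 sulfur genes 7 were higher and 1 lower, and of 15 phosphate starvation genes 6 were higher and 1 lower. AMT1;3, an ammonium importer of the root surface, had 239, 318 and 325 in antimycin A seedlings and 2565, 1389 and 1937 in mock seedlings (change -2.7 ± 0.24, adjusted p = 0.000241). All 5 lower nitrogen genes passed the limma fit, and 3 did so after median centring. GLN1;2, cytosolic glutamine synthetase, had 12046, 11335 and 12427 in antimycin A seedlings and 56938, 30740.3 and 38183 in mock seedlings (change -1.77 ± 0.22, adjusted p = 0.000799). ASN1, the starvation-induced asparagine synthetase, had 23116, 19278 and 10572 in antimycin A seedlings and 4602, 4715 and 3148 in mock seedlings and rose (change 2.04 ± 0.29, adjusted p = 0.00144). The ammonium importer and glutamine synthetase thus stood lower in every antimycin A library, and asparagine synthetase higher.

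Of the sulfur genes, LSU1, a marker of sulfur deficiency, had 833, 754 and 982 in antimycin A seedlings and 298, 126 and 148 in mock seedlings (change 2.26 ± 0.31, adjusted p = 0.00124). APS1, an ATP sulfurylase, had 45744, 45133 and 44122 in antimycin A seedlings and 20304, 15647 and 12484 in mock seedlings (change 1.51 ± 0.19, adjusted p = 0.000866). The second sulfurylase gene APS3 (1.24 ± 0.18) and the glutathione synthetase GSH2 (1.19 ± 0.15) were named after their values were seen. The limma fit called 7 higher members, and 4 to 6 when any 1 library was left out, with 4 without antimycin A library 1, 2 or 3, and 4 also without the trend in variance. SULTR1;1, a root sulfate importer, was listed as lower with 44.7, 66.4 and 79.7 in antimycin A seedlings and 237, 88.4 and 309 in mock seedlings, and did not pass the limma fit (adjusted p = 0.0714).

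Of the phosphate genes, GDPD1, which breaks down glycerophosphodiesters, had 6423, 4334 and 4265 in antimycin A seedlings and 1099.6, 660.4 and 590.4 in mock seedlings (change 2.7 ± 0.26, adjusted p = 0.000281). PS2, a phosphatase, had 146, 123 and 206 in antimycin A seedlings and 47.8, 16.3 and 33.9 in mock seedlings (change 2.34 ± 0.43, adjusted p = 0.0064). SPX1, a phosphate sensor, rose by 1.69 ± 0.19, while PHT1;1, a phosphate importer named after its values were seen, fell (change -1.36 ± 0.17). Of 23 aquaporins 5 were listed as lower and 1 as higher, and the limma fit called 3 of the lower ones, 5 without mock library 2 and 2 without antimycin A library 2 or after median centring. Mock library 2 was the lowest mock library in 5 of the 6 listed aquaporins. PIP2;4 had 303, 320.3 and 378 in antimycin A seedlings and 1821, 1220.3 and 2484 in mock seedlings (change -2.41 ± 0.25, adjusted p = 0.000392) and TIP4;1 had 36.6, 59.7 and 59.8 in antimycin A seedlings and 224, 138 and 299.97 in mock seedlings (change -2.03 ± 0.36, adjusted p = 0.0053).

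Aliphatic glucosinolate synthesis builds sulfur-rich defence compounds from methionine. Of 23 genes of this pathway 11 fell, none was higher and 12 were not listed, beside a background of 8.84% listed as lower. The decreases span the chain-elongation enzymes, the core cytochromes P450, a sulfotransferase and the regulator MYB28. CYP79F2, which commits elongated methionine to the pathway, had 291, 239 and 439 in antimycin A seedlings and 1660.2, 1445 and 1471 in mock seedlings (change -2.28 ± 0.23, adjusted p = 0.000327). The isopropylmalate isomerase subunits IPMI1 (-2.19 ± 0.23) and IPMI2 (-1.99 ± 0.25) and the methionine aminotransferase BCAT4 (-2.0 ± 0.31) followed. BCAT4 had 431, 264 and 520.3 with antimycin A against 2022, 1784 and 1054 in mock libraries. When any 1 library was left out, 10 or 11 of the members were called.

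Genes for indole-derived compounds were listed in both directions. Of 21 genes of tryptophan, indole glucosinolate and camalexin synthesis 6 were listed as higher and 2 as lower. Of the higher ones 5 passed the limma fit, and 3 did so without antimycin A library 1, 2 or 3, without mock library 2 or without the trend in variance. MYB34, a regulator of indole glucosinolates, had 221, 207 and 173 in antimycin A seedlings and 1033, 1087 and 843 in mock seedlings (change -2.29 ± 0.19, adjusted p = 0.000179). GSTF6, a glutathione transferase of camalexin synthesis, had 22216, 22260.4 and 19493 in antimycin A seedlings and 12437, 7073 and 6436 in mock seedlings (change 1.36 ± 0.24, adjusted p = 0.00465). The anthranilate synthase subunits ASA1 (1.18 ± 0.17) and ASB1 (1.25 ± 0.23), named after their values were seen, rose. PAD3, the last enzyme of camalexin synthesis, was listed as higher with 8641, 10488 and 9812 in antimycin A seedlings and 5992, 4581 and 1715 in mock seedlings, and did not pass the limma fit (adjusted p = 0.0506).

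No suberin gene was listed as higher, and listed flavonoid genes were split. Of 14 suberin genes 7 were listed as lower and none as higher, and the limma fit called 5, or 3 to 5 when any 1 library was left out, with 3 without antimycin A library 3 or any mock library. ABCG6, a transporter for suberin of roots and seed coats, had 18.3, 15.3 and 19.9 in antimycin A seedlings and 89.4, 50.8 and 117 in mock seedlings (change -2.13 ± 0.41, adjusted p = 0.00811). CYP86A1, a fatty acid hydroxylase, had 172, 102 and 202 in antimycin A seedlings and 555, 571 and 741 in mock seedlings (change -2.01 ± 0.28, adjusted p = 0.00129), and the acyl-CoA reductase FAR4 changed by -1.52 ± 0.30. CYP86B1 (log2 ratio -2.38) passed the full fit. It lost its call without antimycin A library 1 (adjusted p = 0.0874) or 3 (0.0609), or without mock library 1 (0.112), 2 (0.0518) or 3 (0.0857). After median centring 1 of the 5 suberin calls was left, and ABCG6 and FAR4 were among those lost. MYB107, a regulator of suberin genes named after its values were seen, was listed at 0 in all 3 antimycin A libraries, against 21.1, 8.14 and 9.34 normalised counts in mock libraries. Of 19 flavonoid genes 3 were listed in each direction. The limma fit called 1 higher and 2 lower, or 3 higher and 1 lower after median centring, and 1 lower without antimycin A library 1 or 2 or mock library 1 or 3. MYB111, a flavonol regulator, had 36.5, 34.8 and 28.9 in antimycin A seedlings and 222, 135 and 139 in mock seedlings (change -2.24 ± 0.32, adjusted p = 0.00159).

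Most markers of root hairs and the endodermis were listed as lower in antimycin A seedlings. Of 15 such markers 11 were listed as lower and none as higher, and the limma fit called 8, or 4 after median centring. The antimycin A and mock values of 8 of the 11 did not overlap, a smaller share than the 93.9% of all genes listed as lower. CASP4, a protein of the Casparian strip, had 8.11, 8.68 and 5.98 in antimycin A seedlings and 157, 88.3 and 117 in mock seedlings (change -3.8 ± 0.40, adjusted p = 0.000395). PER64, a peroxidase of Casparian strip lignin, had 65.9, 69.6 and 53.8 in antimycin A seedlings and 542, 348 and 570.1 in mock seedlings (change -2.9 ± 0.27, adjusted p = 0.000254). These endodermal genes were at low levels in all 3 antimycin A libraries. The root hair marker COBL9 had 19.3, 32.6 and 35.9 in antimycin A seedlings and 185, 79.3 and 388 in mock seedlings and fell (change -2.62 ± 0.55, adjusted p = 0.0127).

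In whole seedlings, fewer cells of a type and less RNA per cell cannot be told apart. Mock library 2 was the lowest mock library in 11 of the 11 root markers, and the summed level of the 11 was 1130, 1331 and 1436 normalised counts in antimycin A libraries and 5522, 2543 and 7128 in mock libraries. The limma fit called 11 of the markers without mock library 2, and 5 without antimycin A library 1, antimycin A library 2 or mock library 1. COBL9 lost its call without antimycin A library 1 (adjusted p = 0.0731), antimycin A library 2 (0.0541) or mock library 1 (0.0644). Of the markers of other cell types, 3 of 5 xylem markers were lower, 1 of 5 guard cell markers was lower, 1 of 8 green tissue markers was higher, and none of 4 phloem and 4 seed storage markers was listed. All 3 xylem markers passed the limma fit, but 1 without antimycin A library 1 or mock library 1, none without antimycin A library 2 or mock library 2, and none after median centring. The guard cell call was kept only without mock library 1 among the single omissions and ended after centring, and the green tissue call ended without antimycin A library 2 or mock library 1. Among the xylem markers IRX3 had 372, 277 and 494 in antimycin A seedlings and 841, 901 and 654 in mock seedlings and fell in the full fit (change -1.09 ± 0.24, adjusted p = 0.0155). IRX3 lost its call without antimycin A library 1 (adjusted p = 0.0727), antimycin A library 2 (0.0705), mock library 1 (0.0645) or mock library 2 (0.0788), and after median centring.

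**Figure D3:**
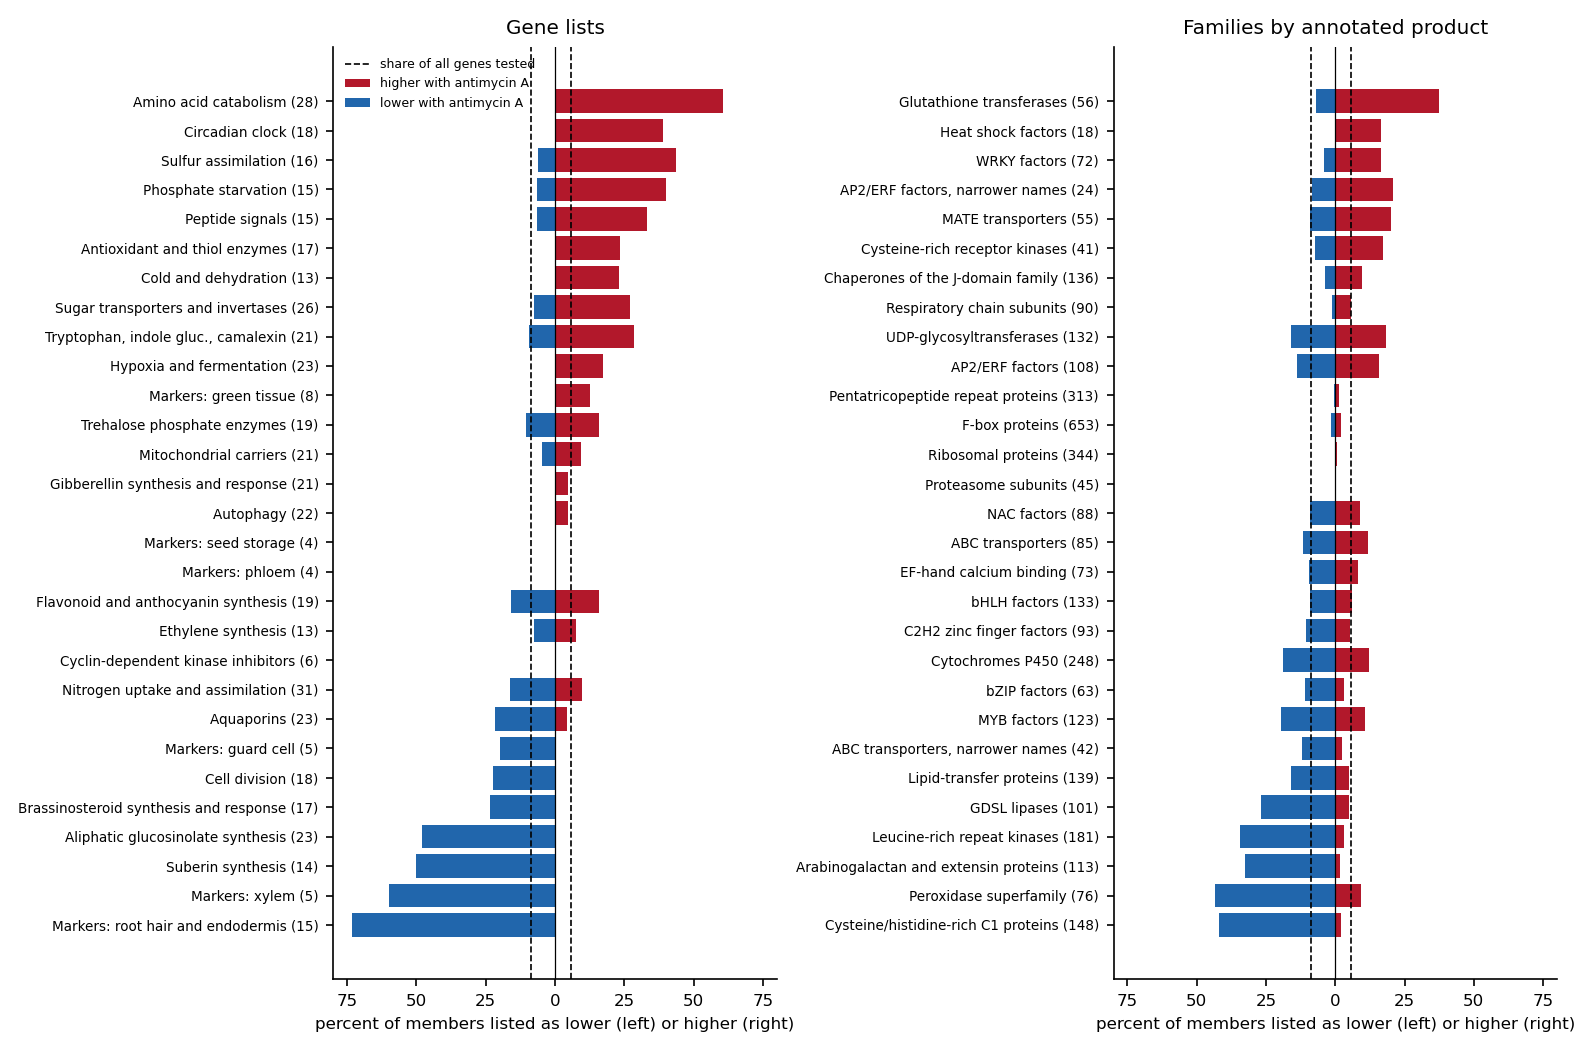
Percent of members listed as higher (red, to the right) and lower (blue, to the left) in antimycin A against mock wild-type seedlings, for 29 gene lists (left panel) and 29 families defined by annotated product (right panel), with the number of members in parentheses. Dashed lines give the share of all genes tested, 5.83% higher and 8.84% lower; amino acid catabolism stands at the top of the left panel and root hair and endodermis markers at the bottom.

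Hormone and signal lists were listed at shares both above and below the background of 5.83% higher and 8.84% lower. Of 17 brassinosteroid genes 4 were listed as lower (23.5%), among them PRE1, a helix-loop-helix growth factor (-1.83 ± 0.35), and ROT3, a cytochrome P450 (-1.16 ± 0.19), which fell. By limma 3 of the 4 were called, and none after median centring. Of 21 gibberellin genes 1 was higher, the receptor GID1B (1.14 ± 0.14), and of 13 ethylene synthesis genes 1 was higher and 1 lower, the oxidase ACO5 (-1.5 ± 0.17). Of 15 peptide signals 5 were listed as higher (33.3%) and 1 as lower. By limma 4 of the higher ones were called, but 1 without any single antimycin A library and 2 without mock library 2 or 3. PSK4, a phytosulfokine precursor, had 4078, 3731 and 4086 in antimycin A seedlings and 1092, 867 and 672 in mock seedlings (change 2.2 ± 0.19, adjusted p = 0.000195), and RALF1, a peptide that restrains cell expansion, had 351, 269 and 435 in antimycin A seedlings and 1129.7, 1079 and 905 in mock seedlings (change -1.58 ± 0.21, adjusted p = 0.00101).

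Of 13 cold and dehydration genes 3 were higher. DREB2A, a regulator of dehydration and heat responses, had 2445, 2176 and 2640.1 in antimycin A seedlings and 317, 211 and 209.9 in mock seedlings (change 3.32 ± 0.20, adjusted p = 7.59e-05), and the galactinol synthase GOLS1 rose by 2.03 ± 0.28. Of 23 hypoxia genes 4 were higher, with 2 called without antimycin A library 2, among them the ethylene response factor HRE2, which had 1598, 1663 and 1887 in antimycin A seedlings and 529, 523 and 334 in mock seedlings (change 1.92 ± 0.20, adjusted p = 0.000425). AT5G10040 had the largest log2 ratio of the 4 (2.93). It lost its call without antimycin A library 1 (adjusted p = 0.0543), antimycin A library 2 (0.0531) or mock library 1 (0.0533). Alcohol dehydrogenase ADH1 is among the 19 hypoxia members that were not listed. Of 17 antioxidant and thiol enzymes 4 were higher, and APX2, a cytosolic ascorbate peroxidase, was listed at 0 in all 3 mock libraries against 62.9, 39.6 and 79.7 normalised counts in antimycin A libraries. Of 18 cell division genes 4 were listed as lower, CYCB1;2 (-1.13 ± 0.17), CYCB1;3 (-1.12 ± 0.20) and CYCD1;1 (-1.28 ± 0.15) among them, all 3 losing their calls after median centring, and none of 6 cyclin-dependent kinase inhibitors was listed.

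Transcription factor families were grouped by the product names of the annotation and set beside the background of 5.83% higher and 8.84% lower. The WRKY factors had 12 higher and 3 lower of 72, heat shock factors 3 higher and 0 lower of 18, AP2/ERF factors 17 higher and 15 lower of 108, NAC factors 8 higher and 8 lower of 88 and bHLH factors 8 higher and 12 lower of 133. MYB factors had 13 higher and 24 lower of 123, bZIP factors 2 higher and 7 lower of 63 and C2H2 zinc finger factors 5 higher and 10 lower of 93. The bHLH factors (6.02% higher, 9.02% lower) and C2H2 factors (5.38% and 10.8%) stood near the background, and the WRKY factors had 16.7% higher and 4.17% lower. Examples were taken as the largest changes of each family after values were seen. WRKY51 had 153, 219.7 and 187 in antimycin A seedlings and 13.3, 12.2 and 10.3 in mock seedlings (change 3.85 ± 0.34, adjusted p = 0.000229) and ERF6 had 2012, 2032 and 1978 in antimycin A seedlings and 420.5, 357 and 278 in mock seedlings (change 2.53 ± 0.18, adjusted p = 0.000111). MYB27 had 6.12, 13.1 and 23.9 in antimycin A seedlings and 563, 263 and 261 in mock seedlings and fell (change -4.64 ± 0.51, adjusted p = 0.000487), and the light-signalling factor HY5 rose by 1.84 ± 0.19.

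Several large families were listed mostly as lower, beside a background of 8.84%. Of 148 cysteine/histidine-rich C1 domain genes 62 were listed as lower (41.9%) and 3 as higher, and of 181 leucine-rich repeat kinase genes 62 were lower (34.3%) and 6 higher. The peroxidase superfamily had 7 higher and 33 lower of 76, arabinogalactan and extensin genes 2 higher and 37 lower of 113, GDSL lipases 5 higher and 27 lower of 101 and lipid-transfer proteins 7 higher and 22 lower of 139. The C1 gene AT1G61840 had 2.05, 5.50 and 12.97 in antimycin A seedlings and 202, 92.4 and 131 in mock seedlings (change -4.38 ± 0.59, adjusted p = 0.00115). The peroxidase gene AT1G44970 had 18.22, 12.01 and 7.97 in antimycin A seedlings and 245, 160.3 and 189 in mock seedlings (change -3.9 ± 0.39, adjusted p = 0.000339), while AT1G14550 of the same superfamily had 109, 118 and 99.7 in antimycin A seedlings and 13.5, 2.05 and 5.61 in mock seedlings and rose (change 4.04 ± 0.57, adjusted p = 0.00138). The kinase gene AT1G07550 fell by 4.38 and the GDSL lipase gene AT2G30220 by 4.05 on the log2 scale. Some members of these families lie in tandem copies, between which the authors' counting could split reads.

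Detoxification families were listed in both directions. Glutathione transferases had 21 higher and 4 lower of 56, MATE transporters 11 higher and 5 lower of 55, UDP-glycosyltransferases 24 higher and 21 lower of 132, cytochromes P450 30 higher and 47 lower of 248 and ABC transporters 10 higher and 10 lower of 85. The share listed as higher was 37.5% for glutathione transferases and 12.1% for cytochromes P450, of which 19.0% were lower, beside 5.83% and 8.84% of all genes tested. Cysteine-rich receptor kinases had 7 higher and 3 lower of 41, J-domain chaperones 13 higher and 5 lower of 136, EF-hand calcium-binding genes 6 higher and 7 lower of 73 and F-box genes 13 higher and 9 lower of 653. GSTF8 had 37454, 35038 and 34548 in antimycin A seedlings and 9923, 6995 and 8089 in mock seedlings (change 2.11 ± 0.16, adjusted p = 0.000151), and the MATE gene AT3G23550 had 3856, 3831 and 3029 in antimycin A seedlings and 738, 498 and 303 in mock seedlings (change 2.88 ± 0.29, adjusted p = 0.000338). ABCG40, a plasma membrane transporter known to import abscisic acid, had 10682, 10352 and 13969.7 in antimycin A seedlings and 1375, 351 and 666 in mock seedlings (change 4.07 ± 0.41, adjusted p = 0.000336). With narrower product names the AP2/ERF count was 5 higher and 2 lower of 24 and the ABC transporter count 1 higher and 5 lower of 42.

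Neighbouring genes were in places listed in the same direction. Runs of at least 4 consecutive protein-coding genes numbered 3 of 4 genes and 2 of 5 among the higher genes, and 5 of 4 genes and 2 of 5 among the lower genes. On chromosome 1 the 5 genes AT1G60720 to AT1G60760 (chr1:22356860-22366598) were all higher, 2 of them annotated as NAD(P)-linked oxidoreductases, with log2 ratios of 1.38 to 4.17. AT1G60730 of this run had 26776, 28229 and 28010.1 in antimycin A seedlings and 9567, 6820.4 and 7933 in mock seedlings (change 1.78 ± 0.16, adjusted p = 0.000241). On chromosome 4, CYP705A4, AT4G15390, CYP702A5, CYP702A6 and BIA1 (chr4:8788659-8813593), which encode cytochromes P450 and acyltransferases, were all lower, with log2 ratios of -3.44 to -1.01. On chromosome 5, AT5G45200 to AT5G45240 (chr5:18283663-18319432), annotated as TIR-NBS-LRR disease resistance genes, were lower, with ratios of -2.54 to -1.24, and on chromosome 1, AT1G44010 to AT1G44050 (chr1:16714622-16741652), 3 of them C1 domain genes, with ratios of -3.64 to -2.99. The remaining run, of 5 higher genes, lies in the AT2G07 range on chromosome 2 (chr2:3493226-3502294). Coordinates are those of RefSeq TAIR10.1, matched by locus identifier. Neighbours that overlap or are near copies can share reads, and whether counting used strand is not given in the sources used here.

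Each of the 5 chromosomes contributed to both directions. The share of its protein-coding genes listed as higher was between 4.36% (chromosome 5) and 5.37% (chromosome 2), and as lower between 7.22% (chromosome 3) and 8.25% (chromosome 5).

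Set beside the other 4 lines, each with its own mock seedlings and its own table, much of the wild-type list recurred. Table columns named kin10-2 and KIN10V17 were read as snrk1a and SnRK1aOX, an inference from the gene's alias KIN10 that the labels do not state. Of the wild-type higher genes, the snrk1a table listed 69.7% as higher, that of jmj15 70.5%, that of crf6 77.2% and that of SnRK1aOX 63.1%. These shared genes made up 56.4%, 61.9%, 64.4% and 66.3% of those lines' own higher lists. Of the wild-type lower genes, the snrk1a table listed 70.2% as lower, that of jmj15 51.5%, that of crf6 65.3% and that of SnRK1aOX 31.1%, or 61.2%, 75.3%, 74.7% and 74.97% of those lines' own lower lists. In all 4 other lines 660 higher and 465 lower genes of wild type were listed the same way, and in none of them 152 and 339. A gene missing from another table may have fallen short of its thresholds by little, so these shares do not test a difference.

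The difference was tested on the 1125 genes listed in the same direction in all 5 tables, as the wild-type change minus the mean change of the other 4 lines. Genes missing from any table could not enter, among them the 152 higher and 339 lower genes listed the same way in no other line. The count of calls therefore covers shared genes only and does not measure how far wild type differs as a whole. By limma, 2 of them (0.178%) had adjusted p under 0.05, and 138 had an unadjusted p under 0.05. NRT2.1 (AT1G08090, chr1:2524023-2526322) fell further in wild type, with log2 ratios of -5.16 for wild type against -2.08 (snrk1a), -2.18 (jmj15), -3.75 (crf6) and -2.56 (SnRK1aOX), a difference of -2.44 ± 0.50 (adjusted p = 0.0275). Its antimycin A means were 22.1, 200.2, 22.6, 49.9 and 65.7, and its mock means 824, 851, 106, 684 and 392, in the same order of lines (normalised counts). 4CL3 (AT1G65060, chr1:24167202-24171635), a 4-coumarate:CoA ligase of flavonoid synthesis, fell less in wild type, with ratios of -1.10 for wild type against -1.93 (snrk1a), -2.65 (jmj15), -2.28 (crf6) and -2.54 (SnRK1aOX), a difference of 1.26 ± 0.26 (adjusted p = 0.0275). Its antimycin A means were 69.5, 81.7, 56.5, 67.6 and 49.4, and its mock means 151, 315, 359, 331 and 293 normalised counts, in the same order. As printed, the mock mean of wild type lay below those of the other lines and its antimycin A mean lay within their range. Each line was normalised separately, so levels of this gene and of NRT2.1 are not on a common scale across lines. In wild type 4CL3 had 74.01, 56.9 and 77.7 in antimycin A seedlings and 157, 114 and 181 in mock seedlings, and its own change in wild type (-1.09 ± 0.30, adjusted p = 0.0473) lost its call without antimycin A library 1 (adjusted p = 0.118), antimycin A library 2 (0.183), antimycin A library 3 (0.0919), mock library 1 (0.154) or mock library 3 (0.201). Both calls were lost in several refits. The adjusted p of NRT2.1 was 0.186 without antimycin A library 1, 0.0620 without antimycin A library 2, 0.0649 without antimycin A library 3 and 0.0738 without mock library 1, and that of 4CL3 was 0.186 without antimycin A library 1, 0.0684 without antimycin A library 3 and 0.0892 without mock library 2.

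The next genes in order of p did not pass. HSFA2 differed by 1.73 ± 0.43 (adjusted p = 0.0829) and HSP22 by 2.09 ± 0.58 (0.137), with the larger log2 increase in wild type. The antimycin A means of HSFA2 were 1136, 1034, 1139, 1105 and 773 in wild type, snrk1a, jmj15, crf6 and SnRK1aOX. Its mock means were 62.4, 202, 282, 163 and 108 in the same order. The log2 ratios of HSP22 were 5.62 in wild type, 4.95 in snrk1a, 4.26 in crf6, 3.32 in SnRK1aOX and 1.08 in jmj15, the line furthest from wild type. HSP22 had mock means of 13.0 in wild type and 763 in jmj15, and antimycin A means of 687 and 1614.5. LHY differed by 0.82 ± 0.22 (0.137), also with the larger increase in wild type. BGLU28, a beta-glucosidase that hydrolyses glucosinolates, differed by -2.05 ± 0.48 (0.0623) and PAD3 by -1.59 ± 0.39 (0.0690), with the smaller increase in wild type. As printed, the wild-type mock mean was the lowest of the lines for HSFA2 and HSP22 and the highest for BGLU28 and PAD3. The wild-type antimycin A mean was the highest for none of these genes. Levels are not on a common scale across lines. AT1G32880 (1.53 ± 0.34, adjusted p = 0.0517), HTH (0.66 ± 0.15, 0.0544) and AT1G59860 (1.42 ± 0.36, 0.0881) complete the 10.

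**Figure D4:**
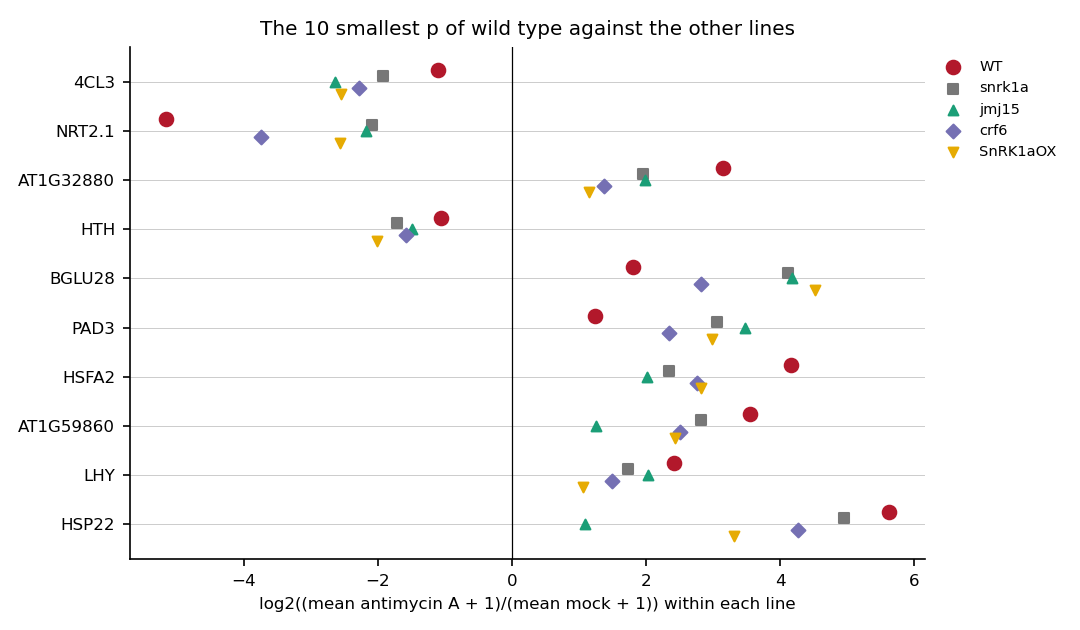
Log2 ratio of the antimycin A mean over the mock mean, each plus 1, within wild type (large red circles) and each of the other 4 lines, for the 10 genes with the smallest p in the test of wild type against the mean of the others. The top pair, 4CL3 and NRT2.1, passed the adjusted threshold; wild type lies outside the range of the other lines in all 10 rows.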

How the data were processed

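RNA of whole Arabidopsis seedlings was sequenced, and the authors aligned reads with Bowtie 0.12.2 to TAIR10, per the submitters' processing notes. Counter, normalisation and test: not given in the sources used here. The deposited wild-type table holds, per the file headers, the authors' signal (a normalised read count per gene and library), log2 fold change, p-value and q-value, and the authors' −log10 column was not used. Its values are not whole, and it lists only genes with a q-value below 0.05 whose log2 fold change exceeds 1 in either direction.

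From these, log2(normalised count + 1) was fitted with limma 3.58.1 (R 4.3.3, empirical Bayes with trend, two-sided), antimycin A against mock, with Benjamini-Hochberg adjustment over 23742 genes; genes not listed entered with the highest possible p. Because the fit saw listed genes only, its calls are not independent of the authors' selection. Wild type minus the other lines was fitted over 1125 genes with line as a term. The procedure was tested on simulated data. Alternatives were a pseudocount of 5 or 0.5, a mean of at least 10, median centring, no trend, a replicate block and leaving out each library. Whether replicate numbers pair the samples is not stated by the labels, and the main fit used no pairing.

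Named genes were the 10 largest changes in each direction at or above the median level without overlap, the 10 largest gains and losses in normalised count, up to 4 members per list, the 10 smallest p against other lines, the 5 longest runs of at least 4 neighbours and the listed genes nearest the thresholds. Not every gene so chosen is described above. Among those left out, PEPC1, CYP71A12, CHS, AT5G05300, PROPEP3 and BR6OX1 lost their calls in at least 1 fit with a library left out. The members and the 31 lists were chosen with earlier results of these data known, and 2 of 29 family name patterns were widened after their first counts were seen. Gene names, coordinates and sequences came from RefSeq TAIR10.1, matched by locus identifier for 3444 of 3481 genes, the other 37 being mitochondrial loci. One listed marker gene that the rule selects is not reported here.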

Additional observations from a re-analysis of the deposited data

Results flagged for a closer look

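NRT2.1 and 4CL3 stood apart because their wild-type change differed from the mean change of the other 4 lines in the limma test, by -2.44 for NRT2.1 and 1.26 for 4CL3 on the log2 scale (adjusted p = 0.0275 for both). Both calls were lost with the replicate block, at adjusted p = 0.0935 for NRT2.1 and 0.0990 for 4CL3. Both were also lost without jmj15 among the other lines, at 0.0659 for NRT2.1 and 0.136 for 4CL3.

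A further 10 genes had antimycin A and mock values that did not overlap in wild type and did not overlap, in the opposite direction, in 1 other line. For none of the 10 was the difference between lines tested, and most are rare transcripts. All were picked for opposite calls by the authors, so the lack of overlap adds little. In wild type, AT5G44570 (adjusted p = 0.219), AT1G73700 (0.102), WAK4 (0.0723), AT3G52350 (0.0702) and AT2G19610 (0.0598) did not pass the limma fit. Some gaps were narrow, as for AT5G44570 in crf6, with 6.57 in 1 antimycin A library and 6.87 in 1 mock library. In snrk1a the opposite direction was listed for AT5G35940, a mannose-binding lectin gene (wild-type log2 ratio 1.31), for AT2G19610 (-2.10) and for AT1G06925, which was listed at 0 in all 3 wild-type antimycin A libraries against a mean of 4.52 normalised counts in mock libraries. AT5G35940 had 279, 370.1 and 332 in antimycin A seedlings and 145, 91.4 and 158 in mock seedlings, and in snrk1a its means were 68.8 in antimycin A seedlings and 152 in mock seedlings. In SnRK1aOX it was listed for WAK4, a wall-associated kinase gene (-1.17), AT5G46890 (-1.38), AT4G03470 (-3.23) and BGAL14, a beta-galactosidase gene (-2.002). In crf6 it was listed for the MATE transporter gene AT1G73700 (2.13) and for AT5G44570 (2.35), and in jmj15 for AT3G52350 (1.49).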

How the results depend on the processing

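The calls of the limma fit kept within 1.5 times their number in the alternatives run, other than for lower genes after median centring, of which 587 were called against 1541. Over the alternatives the higher calls numbered 1131 with a pseudocount of 5, 1101 with 0.5, 1066 with a mean of at least 10, 1343 after centring and 1049 without trend, and the lower calls 1572, 1517, 1432, 587 and 1509. When 1 library was left out, higher calls numbered 869 to 1064 and lower calls 1144 to 1380. With a replicate block, 1081 higher and 1437 lower calls were made. Over all listed genes, same-numbered libraries of the 2 groups deviated with correlations of -0.015, -0.007 and 0.015. These genes were selected by a test on the same libraries, so such values cannot exclude pairing. The summed level of the amino acid catabolism list followed the same order by number in both groups, and that of the clock list did not. The difference between wild type and the other lines was the least stable result: 2 genes passed, 3 with a pseudocount of 5, 0 with the replicate block, 0 to 6 when 1 wild-type library was left out, 14 without snrk1a, 0 without jmj15, 1 without crf6 and 0 without SnRK1aOX. Against the authors' calls, the limma fit called 0 rather than 1 lower sulfur gene, 3 rather than 5 lower aquaporins, 1 rather than 2 lower genes of tryptophan and indole compounds, 1 rather than 3 higher flavonoid genes and 0 rather than 1 higher ethylene synthesis gene. Of 332 genes examined one by one that passed, 260 passed in each of the 6 fits with 1 library left out, 61 lost the call after centring and 16 with the replicate block, and none changed direction in any alternative run. The cause of these changes was not tested, except that centring moves every change up by construction. Calls were fewer among rare transcripts: 42.3% of listed genes passed the limma fit in the lowest of 5 equal classes by level, and 98.6% in the highest. The part of sequencing depth in this was not tested.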
